A study of Mus musculus with 6 samples.

Results

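The genes described here belong to the tumour necrosis factor (TNF) ligand and receptor superfamily, measured in NMuMG cells, an immortalised line of normal mouse mammary gland epithelium. Members were chosen by symbol: every gene named Tnfsf or Tnfrsf with a number, Traf1 to Traf7, and Tnf, Lta, Ltb, Ltbr, Fasl, Cd40, Cd27, Ngfr and Eda2r, where a probe set carried that symbol alone. This gave 42 members of 18193 measured genes, namely 11 ligands, 24 receptors, 6 TRAF adaptors and 1 transcript, Tnfsf13os, that the naming pattern took in although it is a transcript from the opposite strand and not a ligand.

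TNF family ligands are mostly membrane proteins that can be cut free, and they act as trimers on receptors of the TNF receptor family. Some receptors carry a death domain through which they can start cell death, others bind TRAF adaptor proteins and turn on NF-κB and stress kinases, and decoy receptors bind ligand without passing on a full signal. In epithelium the family is known for inflammatory signalling, for control of cell death and, in the mammary gland, for RANK-dependent growth of the gland in pregnancy.

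The study used 6 one-colour Affymetrix arrays, 2 per group. The withdrawal group received 4 ng/ml TGF-β for 11 days and was then kept without it for 13 days, the TGF-β group received the same dose for 11 days, and the control group received vehicle for a time that the labels do not give. All groups were the same single cell line in serum-containing medium with insulin, with no change of genotype. Withdrawn cells had 13 more days in culture than TGF-β cells, so withdrawal and time in culture cannot be told apart, and whether a group's 2 arrays stand for separate cultures is not stated. The p-values therefore measure only how far these arrays spread, and that spread may be technical.

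A free-text field of the labels calls the TGF-β arrays cells that had undergone MET and the withdrawal arrays cells undergoing EMT, which runs against the usual effect of TGF-β, and the groups here follow the titles and treatments. Of 10 mesenchymal markers 9 were higher and 0 lower under TGF-β (0 lower at an unadjusted p under 0.05 as well), and of 10 epithelial markers 6 were lower and 0 higher (1 higher unadjusted). Cdh1, which encodes E-cadherin, fell by 3.63 on the log2 scale under TGF-β and differed by 3.49 between withdrawal and TGF-β. In withdrawn against TGF-β cells 4 epithelial markers were higher and 2 lower, Epcam (-0.27) and Krt8 (-0.22), and 3 mesenchymal markers were higher and 5 lower. Against control, withdrawn cells had 7 of the 10 mesenchymal markers higher and 1 lower, with Pdgfrb 5.40 and Fn1 2.11 higher, and 0 epithelial markers higher (0 unadjusted) and 3 lower. All values are RMA log2 expression, which sets the arrays to a common distribution (array medians 5.77 to 5.79). Arrays of a group correlated at r = 0.998 over genes and arrays of different groups at 0.974 to 0.981. Without detection calls, low values cannot be parted from background. In such bulk samples, fewer cells of a type and less RNA per cell cannot be told apart.

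Of the 42 members, 19 were called in at least 1 comparison and 23 in none. The share of all genes called in none was not counted, so these numbers are a description only. A gene was called at a limma adjusted p under 0.05 over all genes, and unless another probe set is named, a member's values and calls are those of its probe set with the highest mean. Under TGF-β, 3 members were higher than in control and 9 lower, which is 7.14% and 21.4% of the 42, beside 15.0% and 17.5% of all genes. After withdrawal, 9 members were higher and 6 lower than in TGF-β cells (21.4% and 14.3%), beside 21.8% and 22.1% of all genes. Against control, withdrawn cells had 7 members higher and 5 lower (16.7% and 11.9%), beside 21.7% and 23.6% of all genes. In either direction 28.6%, 35.7% and 28.6% of the members were called in these comparisons, beside 32.4%, 43.9% and 45.3% of all genes, so that the counts lay near or under the background and are no result about the family as a whole.

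The median log2 difference of the members was -0.049 for TGF-β against control, 0.012 for withdrawal against TGF-β and -0.00099 for withdrawal against control, where that of all genes was -0.011, -0.033 and -0.042. These comparisons share arrays, the TGF-β arrays in the first pair and the control arrays in the first and last, so their values stand side by side and are not compared with each other. Spike scaling here shifted the RMA values of each array by the mean RMA value of its spike probe sets. It is thus an offset on top of RMA and not a normalisation in its place. This shift moved the median of all genes. With the poly-A spikes it came to -0.30, 0.12 and -0.18 for the comparisons in the same order, and with the hybridisation spikes to -0.17, -0.25 and -0.42.

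A change of at least 1 on the log2 scale was reached by 3 members after withdrawal against TGF-β (7.14%, beside 7.93% of all genes), by 2 against control (4.76%, beside 8.54%), and by 0 under TGF-β (beside 5.30%). They were Ltbr, Tnfrsf1b and Tnfrsf9, all receptors that signal through TRAF proteins.

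**Figure D1:**
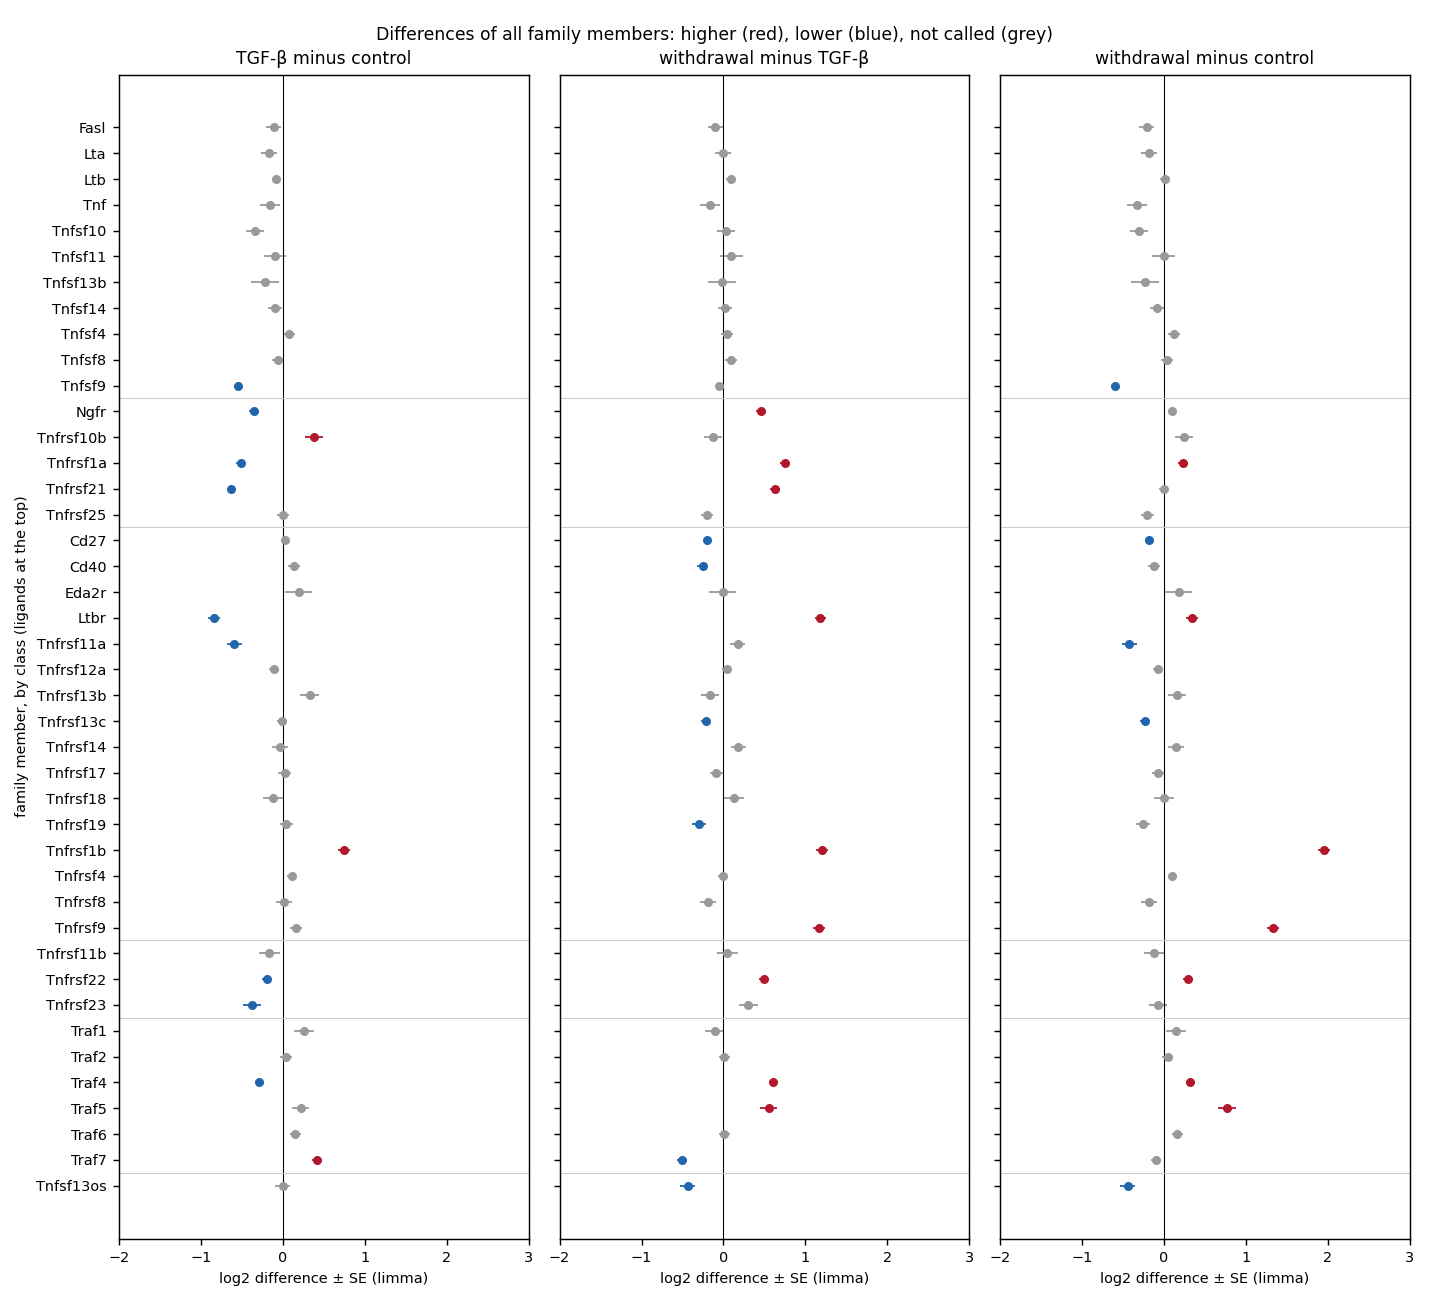
Log2 difference of each of the 42 members (rows) in the 3 comparisons (panels), with bars for the limma standard error; red is called higher, blue called lower and grey not called, and lines part the ligands, death domain receptors, TRAF-binding receptors, decoy receptors, TRAF adaptors and Tnfsf13os. Tnfsf9 is the only ligand called, while Tnfsf10 (-0.34 under TGF-β) and Tnf (-0.33 for withdrawal against control) are uncalled. Tnfrsf1b, Tnfrsf9 and Ltbr lie farthest to the right after withdrawal against TGF-β. The probe set shared by Tnfsfm13, Tnfsf13 and Tnfsf12 is not drawn.

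On the probe sets used for the members, the largest difference was that of Tnfrsf1b, the second TNF receptor, which has no death domain and binds TRAF2. Its RefSeq promoter window in GRCm38.p6 is chr4:145246821-145247120 on the minus strand. It is shown because, on those probe sets, Tnfrsf1b was the member called higher both under TGF-β and again after withdrawal against TGF-β. The window runs from 250 bases before the start to 50 after it. Capitals mark a match to the AP-1 motif TGANTCA or to a single narrow form of the NF-κB consensus, both searched on both strands. Wider forms of that consensus were not searched and stay in lower case. Neither searched motif occurred in this window.
Tnfrsf1b: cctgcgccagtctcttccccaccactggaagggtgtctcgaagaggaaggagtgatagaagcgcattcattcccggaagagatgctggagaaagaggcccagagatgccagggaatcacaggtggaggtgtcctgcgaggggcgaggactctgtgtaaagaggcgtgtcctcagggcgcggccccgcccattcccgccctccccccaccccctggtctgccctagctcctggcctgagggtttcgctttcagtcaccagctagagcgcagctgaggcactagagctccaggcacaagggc

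Tnfrsf1b read 8.56 and 8.75 in withdrawn cells, 7.42 and 7.48 in TGF-β cells and 6.70 and 6.71 in control cells. The groups did not overlap, with control lowest and withdrawal highest. TGF-β cells stood 0.75 ± 0.074 above control (log2, SE, limma adjusted p = 0.000666), a 1.68-fold difference, and withdrawn cells stood 1.20 ± 0.074 above TGF-β cells, or 2.30-fold (adjusted p = 6.17e-05). Against control the difference in withdrawn cells was 1.95 ± 0.074, or 3.86-fold (adjusted p = 1.16e-05). A second probe set for Tnfrsf1b was not called in any comparison, at 0.22, 0.06 and 0.28 in the same order, and with the mean of both sets the differences were 0.48, 0.63 and 1.11, all called.

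Tnfrsf1a, the first TNF receptor, which carries a death domain, was lower under TGF-β and higher after it was withdrawn. It read 9.71 and 9.67 in withdrawn cells, 8.98 and 8.90 in TGF-β cells and 9.49 and 9.43 in control cells. It fell by 0.52 ± 0.057 under TGF-β (adjusted p = 0.00107) and was 0.75 higher in withdrawn than in TGF-β cells (adjusted p = 0.000143). It was 0.23 above control in withdrawn cells (adjusted p = 0.0190), a direction that turned with hybridisation spike scaling (-0.15), and the call was lost with poly-A spike scaling and without the second control array or the first withdrawal array. Both TNF receptor genes were higher in withdrawn than in TGF-β cells, and under TGF-β Tnfrsf1b was above and Tnfrsf1a below control.

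The genes for the ligands of these receptors were dim and uncalled. Tnf read 5.53 and 5.23 in withdrawn cells, 5.57 and 5.53 in TGF-β cells and 5.59 and 5.84 in control cells, and the withdrawal and TGF-β arrays overlapped. Its difference for withdrawal against control was -0.33 ± 0.12 (adjusted p = 0.0777). Lta, for lymphotoxin-α, lay between 5.09 and 5.43 on all arrays.

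Ltbr, the lymphotoxin-β receptor, which activates the NF-κB2 branch, showed the largest fall under TGF-β among the probe sets used for the members. Its promoter window, chr6:125313836-125314135 on the minus strand, is shown beside that of Tnfrsf1a, chr6:125349473-125349772 on the plus strand, since in RefSeq a single protein-coding gene, Scnn1a, lies between these receptor genes and both fell under TGF-β. Neither window held either motif.
Ltbr: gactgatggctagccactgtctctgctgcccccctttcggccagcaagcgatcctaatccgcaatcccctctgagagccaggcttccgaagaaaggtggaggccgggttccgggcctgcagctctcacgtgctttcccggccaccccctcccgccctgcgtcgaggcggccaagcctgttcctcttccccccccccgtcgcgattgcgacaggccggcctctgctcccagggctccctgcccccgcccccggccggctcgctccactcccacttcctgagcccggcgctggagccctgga
Tnfrsf1a: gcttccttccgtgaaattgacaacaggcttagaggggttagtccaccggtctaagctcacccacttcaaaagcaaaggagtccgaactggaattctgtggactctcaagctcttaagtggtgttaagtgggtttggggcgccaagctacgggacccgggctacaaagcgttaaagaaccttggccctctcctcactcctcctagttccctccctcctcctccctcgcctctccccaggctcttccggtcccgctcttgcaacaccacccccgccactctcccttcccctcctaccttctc

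Ltbr read 9.84 and 9.90 in withdrawn cells, 8.60 and 8.77 in TGF-β cells and 9.56 and 9.50 in control cells. TGF-β cells were lowest and the groups did not overlap. The difference was -0.85 ± 0.072 for TGF-β against control (adjusted p = 0.000361), a 1.80-fold fall, and 1.18 ± 0.072 for withdrawal against TGF-β (adjusted p = 6.03e-05), or 2.27-fold. Withdrawn cells stood 0.34 above control (adjusted p = 0.0106), which became -0.040 with hybridisation spike scaling and was not called with poly-A spike scaling or without the second control or second withdrawal array. Its ligand genes Ltb and Tnfsf14 were not called, with Ltb between 4.22 and 4.38. Cd27, separated from Ltbr by 1 gene (Tuba3a), was called 0.20 lower in withdrawn than in TGF-β cells, at a level of 3.43 to 3.64 on all arrays, and that call was lost in 6 of 13 alternatives.

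Tnfrsf9, known as 4-1BB or CD137 and best known as a costimulatory receptor of T cells, was higher after withdrawal than in either other group. RefSeq gives it 2 start sites, and both windows are shown, chr4:150919905-150920204 first and then chr4:150927749-150928048, each on the plus strand. The second held an AP-1 match, TGAGTCA, in capitals, whose first base lies 15 bases before the start.
Tnfrsf9, first start: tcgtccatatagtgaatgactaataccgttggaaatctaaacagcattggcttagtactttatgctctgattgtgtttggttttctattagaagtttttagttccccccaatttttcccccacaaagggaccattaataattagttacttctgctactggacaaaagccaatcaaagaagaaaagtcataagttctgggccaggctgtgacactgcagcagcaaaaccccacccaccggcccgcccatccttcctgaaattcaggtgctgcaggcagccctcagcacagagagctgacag
Tnfrsf9, second start: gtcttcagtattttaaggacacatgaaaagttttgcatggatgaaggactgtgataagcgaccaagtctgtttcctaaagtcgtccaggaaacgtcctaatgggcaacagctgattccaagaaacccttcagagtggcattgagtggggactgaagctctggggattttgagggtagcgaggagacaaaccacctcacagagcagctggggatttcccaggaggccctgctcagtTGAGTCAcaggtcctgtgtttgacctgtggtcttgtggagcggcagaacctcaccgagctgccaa

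The AP-1 motif occurred in 5 of 39 windows of 35 members (12.8%) and in 7.81% of 32851 mouse promoter windows of this length. Overlapping windows of Tnfsf13b hold the same match, which is counted for each of them. The searched form of the NF-κB motif occurred in 1 of the 39 (2.56%), that of Ltb, and in 0.411% of all windows. Other forms of the NF-κB consensus were not counted. Windows outside this count can therefore still hold such a form. The second of Tnfrsf9 does, with the stretch gggatttccc, which stays in lower case because it lies outside the searched form. These are descriptions of letters in a window.

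Tnfrsf9 read 8.27 and 8.14 in withdrawn cells, 7.07 and 7.01 in TGF-β cells and 6.94 and 6.81 in control cells. Withdrawn cells were highest by more than 1 log2 unit. The difference was 1.17 ± 0.076 for withdrawal against TGF-β, or 2.25-fold (adjusted p = 7.53e-05), and 1.33 ± 0.076 against control, or 2.51-fold (adjusted p = 4.21e-05). TGF-β against control gave 0.16 (adjusted p = 0.172). A second Tnfrsf9 probe set was called higher in all 3 comparisons, at 0.38 for TGF-β against control (adjusted p = 0.0228), 1.65 for withdrawal against TGF-β and 2.04 for withdrawal against control, the last above the 1.95 of Tnfrsf1b, and another, near 4.14 to 4.19 in group means, was not called.

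Tnfsf9, which encodes the ligand of Tnfrsf9, moved differently and was the ligand called on the probe sets used. It read 7.38 and 7.29 in withdrawn cells, 7.39 and 7.38 in TGF-β cells and 7.92 and 7.94 in control cells, so that both treated groups lay under control. It fell by 0.55 ± 0.054 under TGF-β (adjusted p = 0.00068) and was 0.60 lower in withdrawn cells than in control (adjusted p = 0.000266). Withdrawn and TGF-β cells differed by -0.05 (adjusted p = 0.495). These calls for Tnfsf9, and those for Tnfrsf9 after withdrawal, held in all 14 alternatives tried for each.

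Tnfrsf9, Cd27, Cd40 and Tnfrsf13c are best known from lymphocytes and antigen-presenting cells, so markers of these cells were read as well. Of 8 measured T and B lymphocyte markers, 0 were called in each of the 3 comparisons, with 1 higher at an unadjusted p under 0.05 for withdrawal against control and 0 otherwise. Their summed log2 level was 41.5 to 42.0 in withdrawn cells, 42.0 to 42.1 in TGF-β cells and 41.9 to 42.4 in control cells, and Ptprc, the pan-leukocyte gene for CD45, read between 3.79 and 4.05 on all arrays. Of 9 macrophage and dendritic markers 2 were lower under TGF-β, 3 were higher in withdrawn than in TGF-β cells, and against control 2 were higher and 1 lower in withdrawn cells. Their summed level was 56.4 to 56.8 in withdrawn cells, 53.0 to 53.9 in TGF-β cells and 58.2 to 58.3 in control cells. Cd14 moved by -1.58, 1.86 and 0.28 in the comparisons of TGF-β with control, withdrawal with TGF-β and withdrawal with control, the last of which became -0.093 with hybridisation spike scaling, while Cd68, a lysosomal glycoprotein gene of macrophages, gave -0.16 (not called), 1.05 and 0.88. Mrc1, the mannose receptor gene, gave -2.83, 0.56 and -2.27. The macrophage genes Adgre1, Csf1r and Itgam were not called in any comparison. The part of these genes in the receptor differences was not tested. Of 9 endothelial markers 1 was called, lower under TGF-β, and that call was lost in most alternatives.

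**Figure D2:**
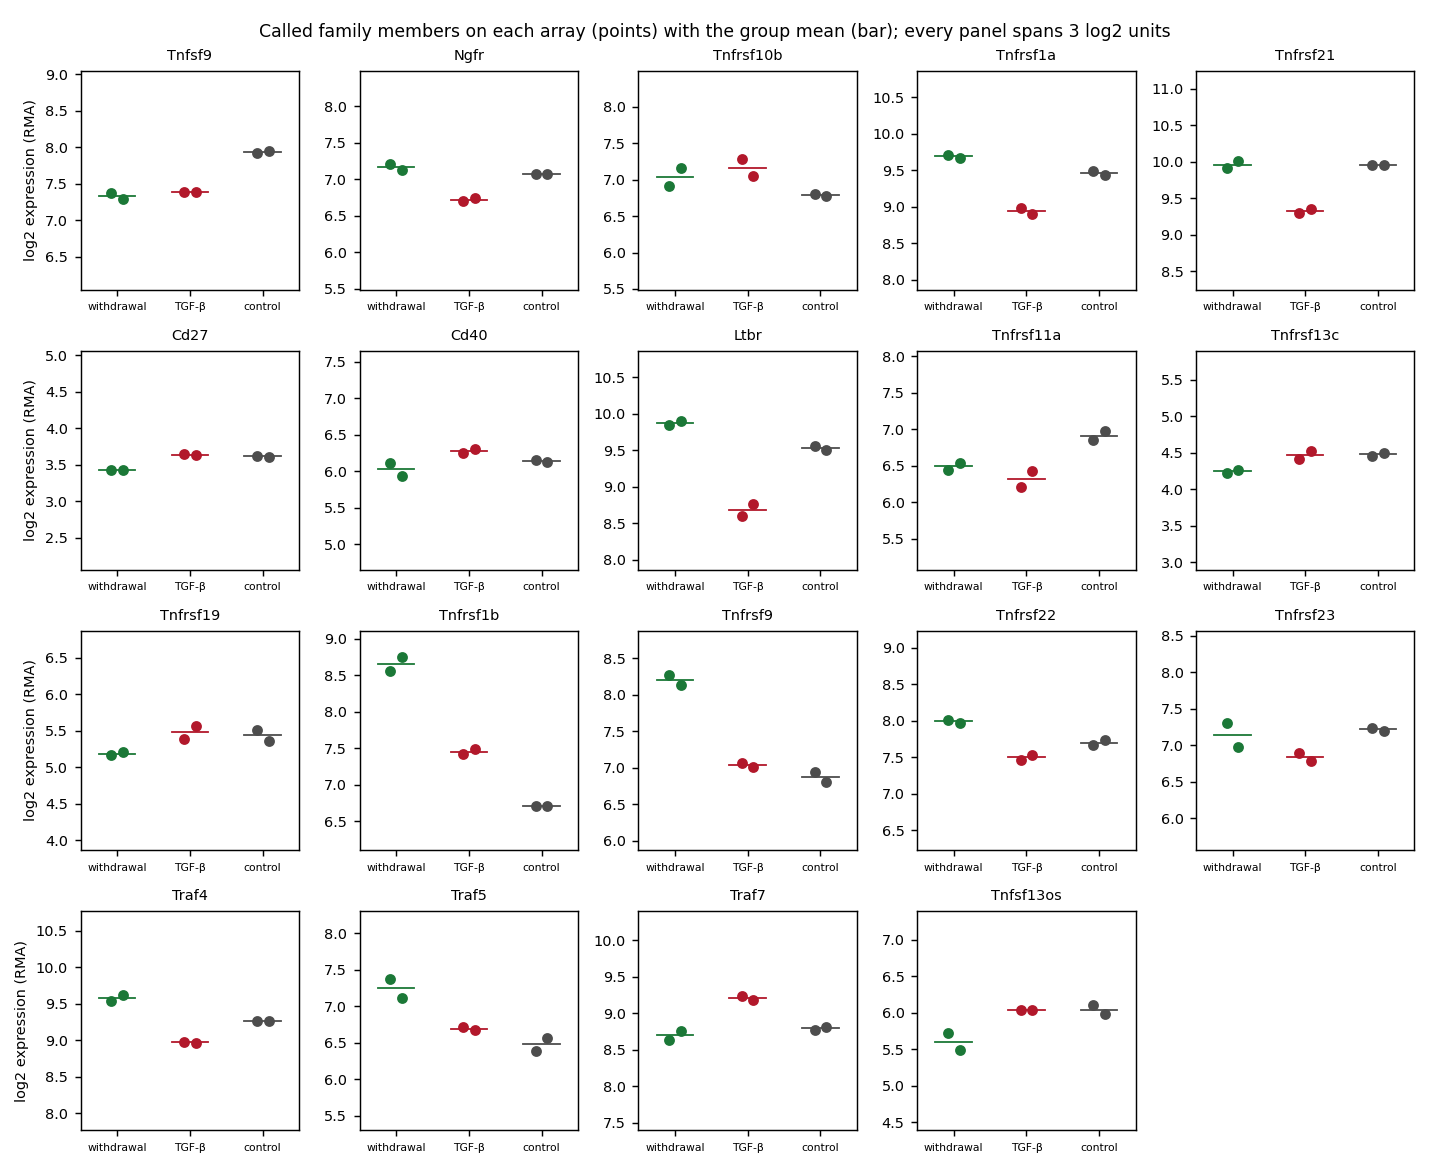
Log2 expression (RMA) of the 19 members called in at least 1 comparison, with 1 point per array, a bar for the group mean (n = 2), and groups in the order withdrawal, TGF-β, control; every panel spans the same 3 log2 units. Tnfrsf1b is lowest in control and highest after withdrawal, Ltbr, Tnfrsf1a, Tnfrsf21 and Traf4 are lowest under TGF-β, and Tnfsf9 is high in control alone.

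Of the 5 receptors with a death domain, 1 was called higher and 3 lower under TGF-β, where 15.0% of all genes were higher and 17.5% lower. In withdrawn against TGF-β cells 3 were higher and 0 lower (1 lower at an unadjusted p under 0.05), beside 21.8% and 22.1% of all genes. With 5 members these counts are a description only. They leave out Fas, a death receptor whose symbol lies outside the naming rule, which was 1.65 higher under TGF-β and 2.37 above control after withdrawal. Tnfrsf21, known as death receptor 6, read 9.91 and 10.00 in withdrawn cells, 9.30 and 9.35 in TGF-β cells and 9.96 and 9.96 in control cells. It fell by 0.63 under TGF-β (adjusted p = 0.000472), was 0.63 higher in withdrawn than in TGF-β cells (adjusted p = 0.000299), and differed from control by -0.00076 ± 0.058 after withdrawal (adjusted p = 0.994). A second probe set for Tnfrsf21 gave -0.35 and 0.32 in the first 2 comparisons. Ngfr, the p75 neurotrophin receptor, fell by 0.36 under TGF-β and was 0.45 higher in withdrawn than in TGF-β cells, with 0.10 against control (adjusted p = 0.205), and the calls were lost with the mean of its probe sets under TGF-β and with hybridisation spike scaling after withdrawal against TGF-β. Tnfrsf10b, the mouse receptor for the death ligand TRAIL, was 0.37 higher under TGF-β (adjusted p = 0.0478), a call lost in 6 of 14 alternatives. A second Tnfrsf10b probe set was called 0.36 higher under TGF-β (adjusted p = 0.0061) and 0.19 above control after withdrawal (adjusted p = 0.0444). Tnfrsf25, or death receptor 3, was uncalled and read 4.79 to 5.12 across the arrays.

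Tnfrsf11a encodes RANK, the receptor through which progesterone-induced RANK ligand drives growth of the mammary gland. It read 6.44 and 6.54 in withdrawn cells, 6.20 and 6.43 in TGF-β cells and 6.85 and 6.97 in control cells. It fell by 0.59 ± 0.093 under TGF-β (adjusted p = 0.00444), and by 0.42 in withdrawn cells against control (adjusted p = 0.0121), a call lost without the second control or the first withdrawal array (highest adjusted p among its alternatives 0.0714). A second Tnfrsf11a probe set gave -1.01 and -1.13 for these comparisons. The genes for its ligand RANKL, Tnfsf11, and for the soluble decoy osteoprotegerin, Tnfrsf11b, were dim and uncalled on the probe sets used, with group differences of at most 0.17 in size. Dimmer second sets were called, at -0.38 for Tnfsf11 under TGF-β (adjusted p = 0.0294) and 0.51 for Tnfrsf11b in withdrawn cells against control (adjusted p = 0.0131).

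The TRAIL decoy receptors Tnfrsf22 and Tnfrsf23 are neighbours on chromosome 7 with no gene between them in RefSeq. Tnfrsf22 was 0.20 lower under TGF-β (adjusted p = 0.0445), a call lost in 9 of 14 alternatives, and 0.49 higher in withdrawn than in TGF-β cells (adjusted p = 0.000860, not called with hybridisation spike scaling). It was 0.29 above control after withdrawal, which became -0.087 with hybridisation spike scaling and was not called with poly-A spikes or without the first control array. Its other probe sets differed in size. One gave 1.77 and 1.59 for withdrawal against TGF-β and against control, and the other gave 0.35 and -0.07. Under TGF-β the first of these gave -0.18 (not called) and the other -0.42 (limma adjusted p = 0.0047). Tnfrsf23 was 0.38 lower under TGF-β (adjusted p = 0.0468), lost without any one of the 4 arrays compared. Both genes are close paralogs, and their values are uncertain where probes match both.

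The other receptor calls were small. Cd40, the receptor that T cells engage on antigen-presenting cells, Tnfrsf13c, the BAFF receptor, and Tnfrsf19, also called TROY, were 0.25, 0.22 and 0.30 lower in withdrawn than in TGF-β cells. Each call was lost in 7 or 8 of 13 alternatives. Another Cd40 probe set was called 0.43 higher under TGF-β (adjusted p = 0.0112) and 0.31 lower in withdrawn than in TGF-β cells. Tnfrsf13c was also 0.23 lower in withdrawn cells than in control (adjusted p = 0.0233), and Cd27 was 0.18 lower (adjusted p = 0.0244), both calls being lost in 6 of 13 alternatives. Tnfrsf19 was the member whose probe sets were called in opposite directions, a second set being 0.25 higher in the same comparison. Tnfsf13os was 0.44 lower in withdrawn cells than in TGF-β cells and 0.44 lower than in control cells. The call against TGF-β was lost with poly-A spike scaling and that against control without the first control array.

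Of the 6 TRAF adaptors, 2 were called under TGF-β, 3 in withdrawn against TGF-β cells and 2 in withdrawn cells against control, beside 32.4%, 43.9% and 45.3% of all genes. Traf4, first found in human breast carcinoma, read 9.53 and 9.62 in withdrawn cells, 8.98 and 8.96 in TGF-β cells and 9.26 and 9.26 in control cells. It fell by 0.29 under TGF-β (adjusted p = 0.00905, not called without either control array) and was 0.61 higher in withdrawn than in TGF-β cells (adjusted p = 0.000273). Its value above control after withdrawal, 0.32, turned to -0.058 with hybridisation spike scaling. Traf5, an adaptor of several TRAF-binding receptors, read 7.37 and 7.11 in withdrawn cells, 6.71 and 6.67 in TGF-β cells and 6.38 and 6.57 in control cells. It was 0.55 higher in withdrawn than in TGF-β cells (adjusted p = 0.00714) and 0.77 above control (adjusted p = 0.00165). Traf7, the TRAF without a TRAF domain, ran the other way, 0.41 higher under TGF-β (adjusted p = 0.00413, not called with either spike scaling) and 0.51 lower in withdrawn than in TGF-β cells (adjusted p = 0.00114, not called with poly-A spike scaling).

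The 23 uncalled members were 10 ligands, 10 receptors and 3 TRAF adaptors, and the largest difference among them on the probe sets used was 0.34 in size. Dimmer probe sets of 4 of them were called, the sets of Tnfsf11 and Tnfrsf11b given with RANK, and in withdrawn cells against control Traf1 at -0.59 (adjusted p = 0.0111) and Tnfsf10 at -0.22 (adjusted p = 0.0408). Smaller differences may still exist, since the median standard error over all genes was 0.07. Of all 42 members, 21 had a mean under the highest array median, beside 6507 of all 18193 genes. Among the 21 were 10 of the 11 ligands and 10 of the 24 receptors. The 10 ligands uncalled there read 4.22 to 5.98 on all arrays. At an unadjusted p under 0.05, 0 of the 11 ligands were higher in any comparison. In the comparisons of TGF-β with control, withdrawal with TGF-β and withdrawal with control, 2, 0 and 3 were lower. The 11 leave out the ligand genes Tnfsf12 and Tnfsf13, whose probe sets carry several symbols. The set with the symbols Tnfsfm13, Tnfsf13 and Tnfsf12 was called in each comparison, at -1.98, 4.01 and 2.03. That with Tnfsfm13 and Tnfsf12 gave -0.36, 0.63 and 0.27, of which 0.63 was called. Tnfrsf12a, or Fn14, the receptor for TWEAK, was an exception to the low level of uncalled members. It read 12.72 and 12.75 in withdrawn cells, 12.65 and 12.73 in TGF-β cells and 12.78 and 12.84 in control cells. Its differences were -0.11 ± 0.056, 0.04 ± 0.056 and -0.07 ± 0.056 in the 3 comparisons. Traf2 and Traf6, adaptors for NF-κB signalling, and Tnfrsf4, the costimulatory receptor OX40, were also uncalled at mean levels of 8.29, 7.21 and 7.54.

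**Figure D3:**
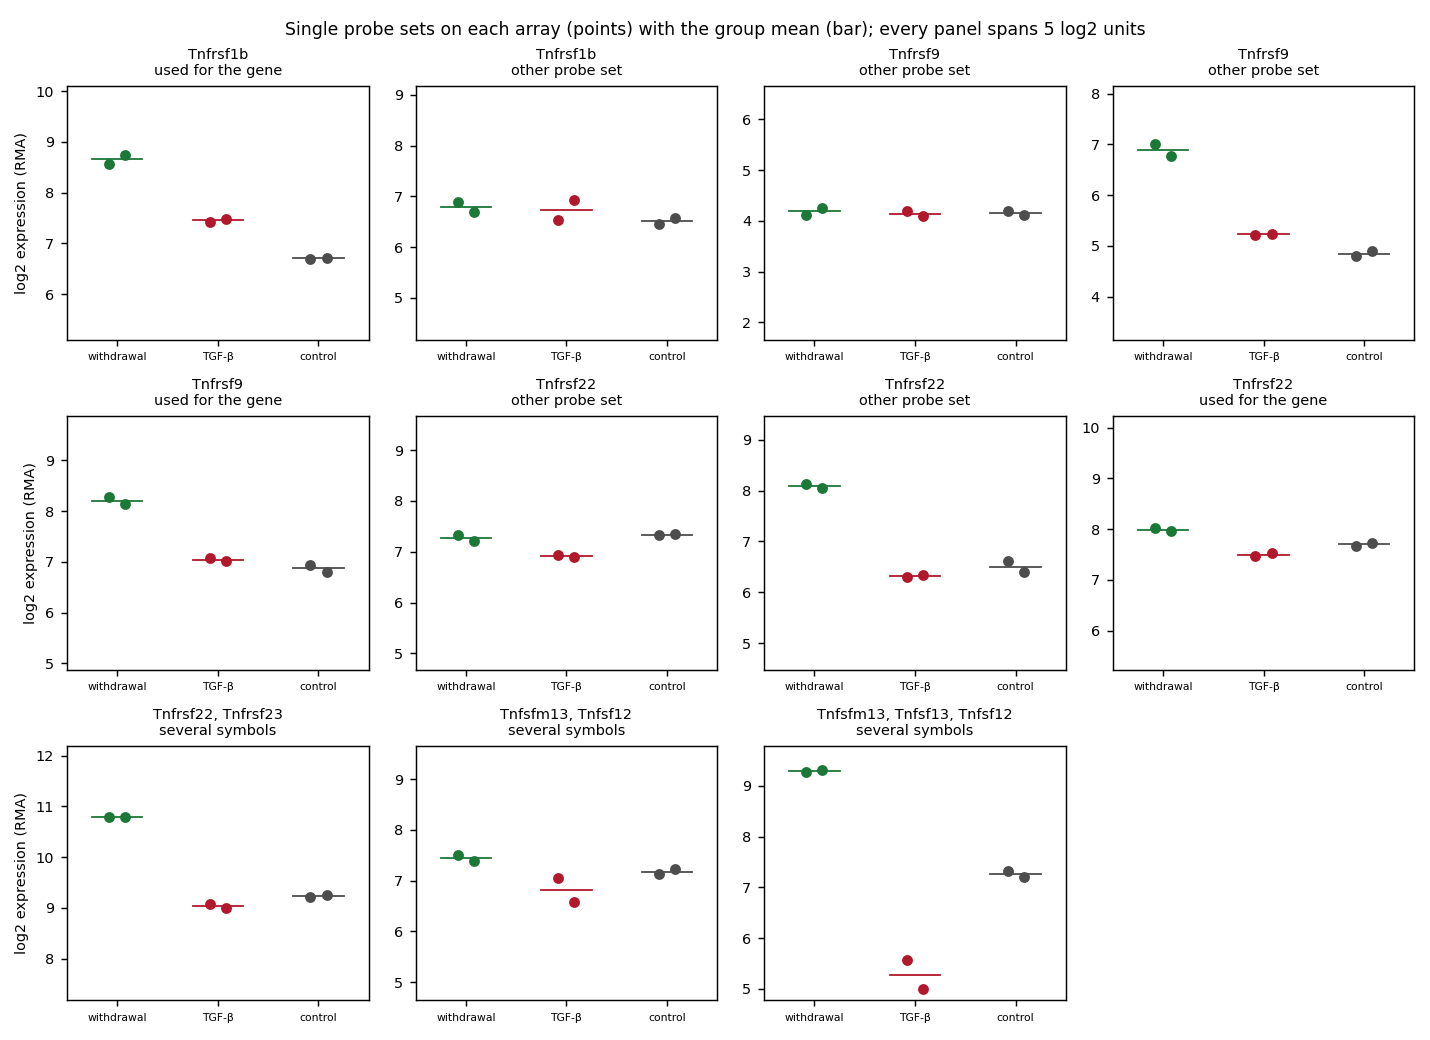
Log2 expression (RMA) of single probe sets on each array (points) with group means (bars, n = 2). Shown are the probe sets of Tnfrsf1b, Tnfrsf9 and Tnfrsf22 and 3 probe sets whose annotation holds several family symbols. In all, 21 members have several probe sets, and those of the others are not drawn. Every panel spans 5 log2 units. The second Tnfrsf1b set is flat, and the probe set shared by Tnfsfm13, Tnfsf13 and Tnfsf12 is lowest under TGF-β and highest after withdrawal.

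Genes that carry the signal from TNF receptors were read from lists chosen with earlier results of these data known. Of 17 NF-κB subunits, inhibitors and kinases, 9 were higher and 2 lower under TGF-β, 8 were higher and 4 lower in withdrawn than in TGF-β cells, and 9 were higher and 3 lower in withdrawn cells than in control. Calls in either direction made up 64.7%, 70.6% and 70.6% of this list, beside 32.4%, 43.9% and 45.3% of all genes. As the lists were chosen with results known, such shares are a description only. Median differences of the 17 genes were 0.18, 0.14 and 0.25, beside -0.011, -0.033 and -0.042 over all genes. The 9 higher under TGF-β became 0 with poly-A spike scaling and 2 with hybridisation spike scaling, and also fell without the second control array. They became 4 without probe sets marked x, s or a in their names. That fit leaves out genes with no other set, among them Rela. Rela, the p65 subunit, read 11.29 and 11.30 in withdrawn cells, 10.57 and 10.64 in TGF-β cells and 9.93 and 9.97 in control cells. Its differences of 0.66, 0.69 and 1.34 were all called. Relb, a partner of NF-κB2, was 1.12 and Ikbkg, the regulatory subunit of the IκB kinase, 1.13 above control after withdrawal. Bcl3, a nuclear IκB protein, fell by 1.30 under TGF-β and was 1.03 lower in withdrawn cells than in control. Tnfaip3, or A20, an enzyme that limits TNF receptor signalling, read 8.41 and 8.39 in withdrawn cells, 9.71 and 9.64 in TGF-β cells and 9.40 and 9.39 in control cells. It was 1.28 lower in withdrawn than in TGF-β cells, while its 0.28 above control under TGF-β turned to -0.0058 with poly-A spike scaling.

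**Figure D4:**
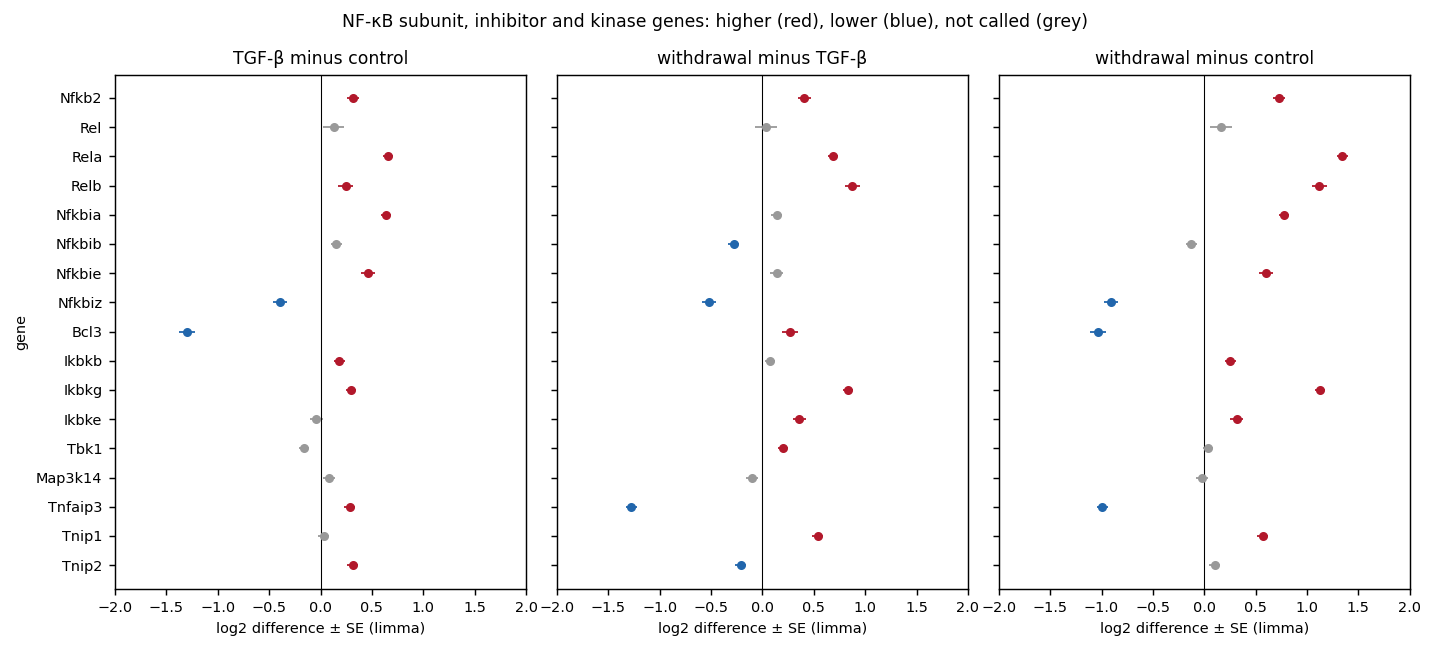
Log2 difference with limma standard error for 17 NF-κB subunit, inhibitor and kinase genes (rows) in the 3 comparisons (panels); red is called higher, blue called lower, grey not called. Rela, Relb and Ikbkg lie right of 0 in each panel (Relb under TGF-β turned to -0.043 with poly-A spike scaling), and Tnfaip3 and Bcl3 lie left of 0 after withdrawal against control.

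Of 23 receptor adaptors and members of the death complexes, 5 were higher and 4 lower under TGF-β, 9 higher and 4 lower in withdrawn than in TGF-β cells, and 8 higher and 7 lower in withdrawn cells than in control. Calls in either direction made up 39.1%, 56.5% and 65.2% of the list, beside 32.4%, 43.9% and 45.3% of all genes. Median differences were 0.0057, 0.019 and 0.092. The count of 7 lower against control was 2 without either control array or without the first withdrawal array, and 3 without the second. Map3k5, or ASK1, a stress kinase upstream of JNK, read 6.96 and 6.95 in withdrawn cells, 4.92 and 5.49 in TGF-β cells and 7.61 and 7.57 in control cells. It fell by 2.38 under TGF-β. Mlkl, the effector of necroptosis, was 1.01 higher under TGF-β and 0.95 above control after withdrawal. Cflar, which encodes the caspase-8 inhibitor c-FLIP, was 0.69 and 0.79 above control in the same groups, and Casp8 itself fell by 0.26 and 0.69.

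TNF-inducible genes were called both ways. The share called was 66.7% under TGF-β, 63.3% for withdrawal against TGF-β and 66.7% for withdrawal against control. Over all genes it was 32.4%, 43.9% and 45.3%. Of 30, 10 were higher and 10 lower under TGF-β, 8 higher and 11 lower in withdrawn than in TGF-β cells, and 6 higher and 14 lower in withdrawn cells than in control, with medians of -0.036, -0.085 and -0.21. The count of 14 was 9 without the second control array. The neutrophil chemokine genes Cxcl5 and Cxcl1 differed by -3.07 and -1.82 under TGF-β and were 2.32 and 1.59 higher in withdrawn than in TGF-β cells. Vcam1, a leukocyte adhesion molecule, read 12.21 and 12.21 in withdrawn cells, 9.23 and 9.30 in TGF-β cells and 9.70 and 9.68 in control cells, so it was 2.52 above control after withdrawal. Icam1, another leukocyte adhesion molecule, differed by -2.01 under TGF-β, where its arrays read 4.26 and 5.25. Between withdrawn and control cells Icam1 differed by -1.10. Ccl7, a monocyte chemokine, was 2.50 above control after withdrawal. The chemokine gene Ccl20 differed by -2.15 under TGF-β and by -0.45 between withdrawn and control cells. Tnfaip6 and Gadd45b were 1.62 and 1.20 higher under TGF-β and differed by -1.70 and -1.81 between withdrawn and TGF-β cells. Ier3, an early response gene, differed by -1.67 between withdrawn and control cells.

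Of 12 genes for the cutting and processing of TNF family proteins, 3 were higher and 3 lower under TGF-β, 5 higher and 3 lower in withdrawn than in TGF-β cells, and 6 higher and 3 lower in withdrawn cells than in control, with medians of 0.047, 0.092 and 0.14. Calls in either direction made up 50%, 66.7% and 75% of the 12, beside 32.4%, 43.9% and 45.3% of all genes. Adam17, the protease that releases TNF and its receptors, was 0.55 higher in withdrawn than in TGF-β cells and 0.57 above control. Its difference for TGF-β against control was 0.02 (adjusted p = 0.83). Timp3, an inhibitor of ADAM17, was 3.38 higher under TGF-β, 1.59 lower in withdrawn than in TGF-β cells and 1.79 above control. Adam8, another protease of the family, differed by -2.46 between withdrawn and control cells.

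Another 18 measured genes have symbols outside the naming rule, some of them family genes such as Fas and Cd70, the others of related function. Under TGF-β 7 of these were higher and 3 lower, and 7 were higher and 5 lower in withdrawn than in TGF-β cells. Against control 5 were higher and 4 lower in withdrawn cells. Median differences were 0.15, 0.097 and -0.076 in these comparisons. Calls in either direction made up 55.6%, 66.7% and 50% of the list, beside 32.4%, 43.9% and 45.3% of all genes. The 7 higher under TGF-β were 3 or 4 when any one of the 4 arrays compared was left out. Fas, the death receptor for Fas ligand, read 8.64 and 8.50 in withdrawn cells, 7.83 and 7.87 in TGF-β cells and 6.03 and 6.37 in control cells. It was 1.65 higher under TGF-β and 2.37 above control after withdrawal. Fasl, for its ligand, was not called and read 4.23 to 4.63 on all arrays. Nradd, a death domain protein related to Ngfr, was 0.95 and 1.65 above control in TGF-β and withdrawn cells, and Traip, a TRAF-interacting ubiquitin ligase, fell by 1.19 and 1.75 against control in TGF-β and withdrawn cells.

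The counts of these lists moved with the spike scalings as those of all genes did. With poly-A spikes the adaptors under TGF-β were 1 higher and 7 lower, and the genes called higher under TGF-β numbered 4 of the TNF-inducible, 1 of the cutting and processing and 3 of the related genes. With hybridisation spikes the calls for withdrawal against control were 4 higher and 12 lower for the adaptors, 5 and 7 for the NF-κB genes, and 2 and 6 for the cutting and processing genes, and 22 of the TNF-inducible and 10 of the related genes were lower.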

How the data were processed

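Gene expression was measured on 6 arrays. The authors deposited 1 log2 value per probe set and array, computed with RMA per the submitters' processing notes, which name no version. RMA corrects background, quantile normalises arrays and summarises probes, so a shift shared by all genes is removed. Per the labels' protocols, the RNA was labelled with a 3′ IVT kit after poly-A control RNA was added. Of 45101 probe sets, 64 controls were left out and the 34945 with 1 symbol in the platform annotation were used, 1 per gene with the highest mean over the arrays, giving 18193 genes. The number of arrays limits the precision.

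Groups follow the titles. One limma 3.58.1 model (R 4.3.3, lmFit and eBayes, 3 residual and 2.857 prior degrees of freedom) was fitted to all genes and arrays, two-sided, with Benjamini-Hochberg adjustment over all genes and a threshold of 0.05, and was tested on simulated data. Single probe sets were adjusted over 35877. Tables and figures were made with Python 3.11.15, pandas 2.3.3 and matplotlib 3.10.9. The members and lists were chosen with earlier results of these data known. All members are accounted for: those called with a log2 difference of at least 1 in full, other called ones by their differences, uncalled ones by range with the highest levels named, and up to 5 called genes per companion list and comparison. Lists covered adaptors, NF-κB, TNF-inducible, shedding and related genes, and markers of epithelial, mesenchymal, lymphocyte, macrophage and endothelial cells. Promoter windows and gene order come from RefSeq (GRCm38.p6), with all 42 members matched. Alternatives were a replicate block, an intensity trend, a filter on dim genes, mean probe sets and leaving out probe sets marked x, s or a in their names. Others were a shift of the RMA values on spikes, fits to 2 groups and leaving out each array.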

Additional observations from a re-analysis of the deposited data

Results flagged for a closer look

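In 2 probe sets that the naming rule leaves out because the annotation gives them several symbols, withdrawn cells stood above control, and no gene can be named from either. The probe set with the symbols Tnfrsf22 and Tnfrsf23 read 10.80 and 10.79 in withdrawn cells, 9.07 and 8.99 in TGF-β cells and 9.22 and 9.25 in control cells. It was 1.56 higher in withdrawn cells than in control (limma adjusted p = 1.28e-05). The probe set with the symbols Tnfsfm13, Tnfsf13 and Tnfsf12 read 9.27 and 9.31 in withdrawn cells, 5.57 and 4.999 in TGF-β cells and 7.32 and 7.21 in control cells. Its differences were -1.98 for TGF-β against control, 4.01 for withdrawal against TGF-β and 2.03 for withdrawal against control (adjusted p = 0.000229). A further probe set with the symbols Tnfsfm13 and Tnfsf12 gave -0.36, 0.63 and 0.27 in these comparisons, of which only withdrawal against TGF-β was called (adjusted p = 0.0189). With 2 arrays a group, no test for a single array far from the others was possible.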

How the results depend on the processing

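Of 39 member calls, those for Tnfrsf1b in all comparisons, Ltbr, Tnfrsf1a and Tnfrsf21 in the comparisons with TGF-β cells, Tnfrsf9, Traf5 and Tnfsf9 wherever called, Tnfrsf11a under TGF-β and Traf4 after withdrawal against TGF-β held in every alternative run. Members higher under TGF-β numbered 3, and 1 with poly-A or with hybridisation spike scaling; the 9 lower became 15 with poly-A spikes. For withdrawal against TGF-β, the 6 lower became 3 with an intensity trend, 0 with poly-A and 14 with hybridisation spikes. They became 2 without the dimmest 40% of genes and 3 without probe sets marked x, s or a in their names. For withdrawal against control, the 7 higher became 3 with either spike scaling, and the 5 lower became 2 without the dimmest genes and 28 with hybridisation spikes. Leaving out 1 array gave 2 to 3 higher and 6 to 8 lower under TGF-β, 9 to 10 higher and 2 to 4 lower for withdrawal against TGF-β, and 5 to 7 higher and 3 to 6 lower for withdrawal against control. The count of 6 lower for withdrawal against TGF-β was 3 without the first and 2 without the second withdrawal array, and 3 without the second TGF-β array, and the count of 5 lower against control was 3 without either control array or the second withdrawal array. These are counts under each setting and can hold members not among the 6 or the 5. They also lack members that a setting left out. The filter on dim genes kept 19 members, and of their 32 calls in the main fit 0 were lost. Without the sets marked x, s or a, Cd40 and Traf7 had no probe set left. The causes were not tested. The called split of all genes, 2726 higher and 3175 lower under TGF-β, was 818 and 5334 with poly-A and 1319 and 4408 with hybridisation spikes. The split was 3960 and 4023 for withdrawal against TGF-β, against 3506 and 1500 with poly-A and 2146 and 7772 with hybridisation spikes, and 3943 and 4292 for withdrawal against control, against 1967 and 3730 and 1655 and 12634.

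Signs turned for withdrawal against control with hybridisation spikes in Ltb (-0.37), Ltbr (-0.040), Ngfr (-0.28), Tnfrsf18 (-0.37), Tnfrsf1a (-0.15), Tnfrsf22 (-0.087), Tnfrsf4 (-0.28), Tnfsf8 (-0.34), Traf2 (-0.33), Traf4 (-0.058), Birc2 (-0.35) and Cd14 (-0.093). With poly-A spikes they turned under TGF-β in Bid (-0.048), Tnfaip3 (-0.0058), Relb (-0.043), Ccl7 (-0.032) and Tnfaip1 (-0.035). Tnfrsf19 in withdrawal against TGF-β turned to 0.037 without probe sets marked x, s or a, and Csf1 to 0.18 with mean probe sets. The replicate number as a block gave 3 higher and 8 lower members, 10 and 5, and 7 and 5 in the 3 comparisons. Deviations of arrays with the same number correlated at r = -0.0038, -0.016 and 0.0067, so no shared effect of the number was seen. This cannot decide whether the numbers pair cultures, which the labels do not state. Depth is not recorded for arrays. Of the members, 21 lay under the highest array median, where a difference can be understated and low values cannot be parted from background.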
